A study of Mus musculus with 12 samples.

Results

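The genes described here are 9 members of the complement system in mouse BMDMs: the chains of C1q (C1qa, C1qb, and C1qc), C3, factor B (Cfb), properdin (Cfp), the anaphylatoxin receptors C3ar1 and C5ar1, and the C1 inhibitor (Serping1). They were chosen by name, and all 9 were found among the 43626 genes listed and among the 14308 genes tested. BMDMs are macrophages grown in culture from mouse bone marrow, LPS is a bacterial cell wall component that activates TLR4, and 3′SL is the milk sugar 3′-sialyllactose. The data comprised 12 stranded libraries of polyadenylated RNA, 3 each for cells given PBS, 3′SL (100 μg/mL, called HMO in the labels), LPS (10 ng/mL), or LPS + 3′SL. Doses and the 6 hours of incubation were taken from the paper, since the treatment field of the labels describes injections into mice. The strain, genotype, and age of the mice that gave the marrow are not given in the labels. The labels do not say whether the 3 libraries of a condition came from separate cultures or animals. A figure legend of the paper calls RNA-Seq samples independent biological duplicates for its heatmaps and gives n = 3 for other panels. It does not say what was replicated. The p-values therefore measure the spread between these libraries, part of which may be technical.

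Complement is a cascade of plasma and cell surface proteins that marks microbes and dying cells for uptake. C1q recognizes targets in the classical pathway, factor B builds the C3 convertase of the alternative pathway, properdin stabilizes it, and all pathways meet at the cleavage of C3. Fragments released from C3 and C5 are sensed by the receptors encoded by C3ar1 and C5ar1, and the C1 inhibitor blocks the proteases of the first step. Macrophages are a known source of C1q, properdin, and C3 outside the liver.

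Levels are given in CPM, reads scaled to a fixed library size, with sizes adjusted by edgeR's TMM factors. Between 20411741 and 26851890 reads were counted on genes per library (median 23375851). Il6, a target of LPS, lay between 0.0351 and 0.437 CPM without LPS and between 9.41 and 105 CPM with it. The summed level of 8 macrophage markers ranged from 17639.8 to 20737 CPM with PBS and from 26009.8 to 29473 CPM with LPS, and the T cell markers Cd3e and Cd3g had 0 reads in all 12 libraries. The sum of 6 dendritic cell markers ranged from 0.947 to 1.89 CPM with PBS and from 6.05 to 16.3 CPM with LPS. That of 5 endothelial markers ranged from 7.41 to 13.6 CPM and from 18.5 to 28.6 CPM in the same order, and the part of these markers in the changes with LPS was not tested. The single markers differed. Among the dendritic markers tested, the log2 fold change with LPS was 3.78 for Xcr1, 3.47 for Clec9a, 2.75 for Ccr7, and 0.86 for Zbtb46. Among the endothelial markers tested, it was 1.98 for Cdh5, 0.99 for Kdr, and 0.070 for Pecam1. After the condition means were removed, the libraries fell into 3 sets of 4 with 1 library of each condition. Each set is a run of 4 consecutive library numbers in the labels, and the mean correlation of residuals was 0.570 within sets and −0.337 between sets. Removing the mean of 3 libraries by itself lowers the correlation between sets, so its negative sign is no evidence for the sets. Values are listed in the order of library sets 1, 2, and 3. A gene was called changed where it moved by 1.5-fold or more and edgeR's adjusted p was under 0.05. Its quasi-likelihood p-values were adjusted by the method of Benjamini and Hochberg over all genes tested.

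In cells given PBS, the C1q chains had the highest mean levels per kilobase of exon, and C3, Serping1, and Cfb (0 to 0.135 CPM) had the lowest levels in CPM. The order of the others in CPM was different. C3ar1 (mean 1516 CPM) stood between C1qb (1698) and C1qc (1375), and C1qa (558) was below C5ar1 (915) and Cfp (594). Set per kilobase of exon, so that genes can be compared, C1qb was at 1561 ± 413 CPM per kilobase (SD, n = 3). It was followed by C1qc at 712 ± 202 and C1qa at 536 ± 149.9 CPM per kilobase, whose ranges over the libraries overlapped although C1qc was above C1qa in each. C5ar1 (356 ± 124), C3ar1 (352 ± 44.2), and Cfp (342 ± 57.7 CPM per kilobase) came next, and the order of these 3 differed between the libraries. C3 was at 6.34 ± 3.48 and Serping1 at 0.486 ± 0.505 CPM per kilobase. With LPS, C1qb was still highest per kilobase of exon (2034 ± 483 CPM per kilobase). C1qc (797 ± 159.5), C3ar1 (719.7 ± 179.8), and C1qa (627 ± 149.5 CPM per kilobase) followed, in this order in each of the 3 libraries although their ranges overlapped, and Cfp stood at 437 ± 96.4. C3 reached 281 ± 32.4 CPM per kilobase, near C5ar1 at 232 ± 31.7. No level per length is given for Cfb, because 2246 of its 2825 exon bases (79.5%) are also annotated on the same strand to Gm20547. That gene had 0 reads in all 12 libraries, and 579 bases belong to Cfb alone. How reads on the shared bases were counted could not be seen from the counts.

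**Figure D1:**
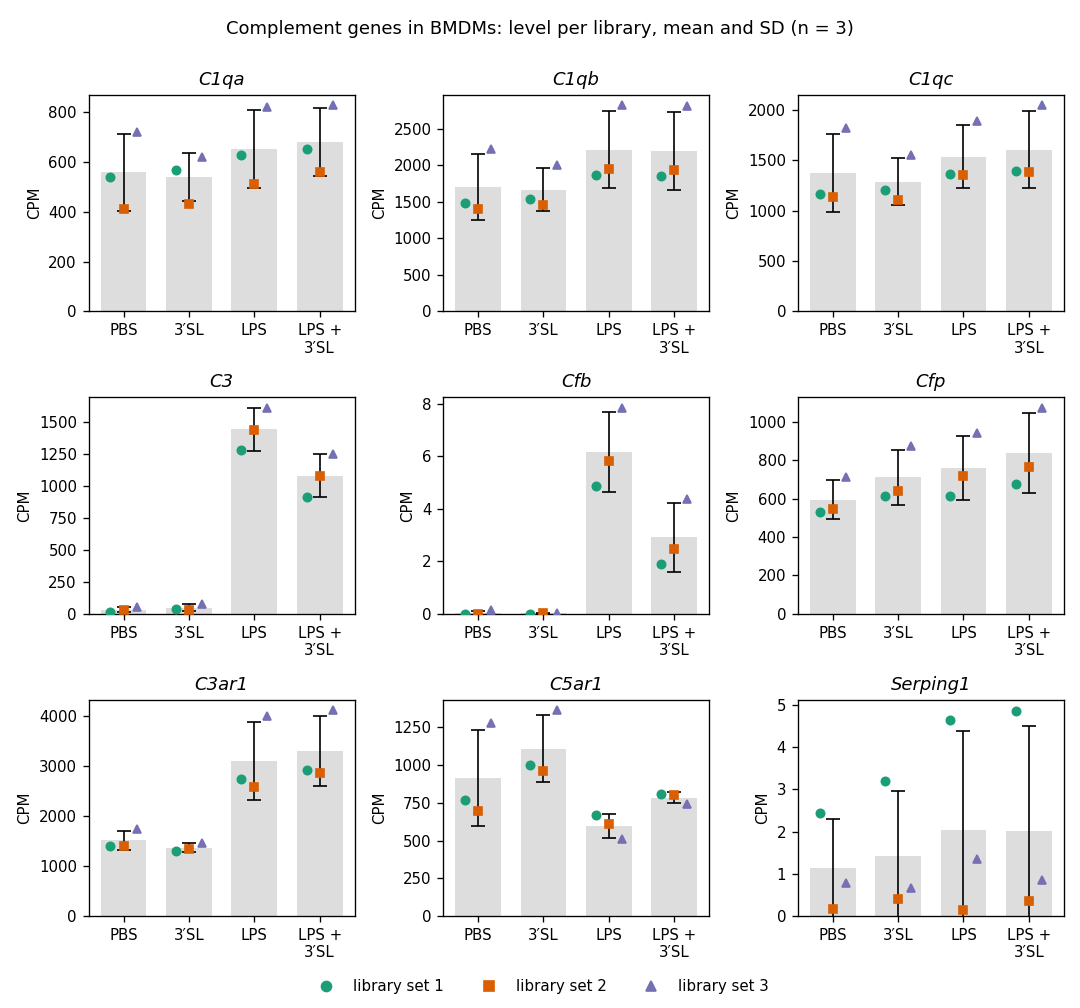
Level of each of the 9 genes in CPM (vertical axes, from 0) in the 4 conditions. Points are single libraries coloured by library set, bars are means, and whiskers are the SD (n = 3, cut off at 0). C3 and Cfb stand apart with LPS in every set, while Serping1 separates the sets, with set 1 between 2.44 and 4.85 CPM and set 2 between 0.145 and 0.398 CPM.

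LPS raised C3, Cfb, and C3ar1 in BMDMs, and C5ar1 was called lower, a call that was lost without any 1 of the 3 library sets, in 9 of 12 fits that left out 1 library, and with DESeq2. The 3 C1q chains, properdin, and the C1 inhibitor were not called. With the sets as a block, C1qa, C1qb, and Cfp had an adjusted p under 0.05 (edgeR) and were short of 1.5-fold. With the block and library sizes scaled by total counts, these genes and C1qc were lower instead. They again had an adjusted p under 0.05 (edgeR) and were short of 1.5-fold. Of the 9 genes, 4 were called against PBS, 3 higher and 1 lower, beside 38.5% of all genes tested (18.3% higher and 20.2% lower). A count of 4 of 9 is not far from that background. Cfb was kept for testing through its reads in the libraries given LPS, so only a call as higher was open to it. With the sets as a block, 3 of the 9 were called, all higher, beside 44.6% of all genes. The median log2 fold change of the 9 genes was 0.38, against −0.061 for all genes tested. The groups did not overlap for C3, Cfb, and C3ar1, which were higher (as were 27.3% of all genes), and for C5ar1, which was lower (as were 31.1%). With library sizes scaled by total counts, the median of all genes was −0.71, and 1535 genes were called higher and 6657 lower, against 2613 and 2889 with TMM factors.

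C3, the protein on which all complement pathways converge (chromosome 17, 57203970 to 57228136, GRCm38, minus strand), had 15.9, 30.4, and 51.5 CPM with PBS and 1278, 1439, and 1611 CPM with LPS. The lowest library with LPS was far above the highest with PBS. The log2 fold change was 5.47 (SE 0.52, 95% confidence interval 4.32 to 6.61), a 44.2-fold increase with an adjusted p of 1.3e-05 (edgeR). Within the library sets it was 6.33, 5.56, and 4.97 on the log2 scale. The highest library exceeded the lowest by 3.23-fold with PBS and by 1.26-fold with LPS, and set 3 had both the highest level with PBS and the smallest increase.

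Promoter sequences of RefSeq (GRCm38.p6, from 250 bases before to 50 after the start) were found for C1qb, C1qc, C3, C3ar1, C5ar1, and Cfp, 6 of the 9 genes. Those of C3, C3ar1, and C5ar1 are shown, because these are the genes with a promoter that were called with LPS. They lie on the minus strand at chr17:57228087-57228386, chr6:122856108-122856407, and chr7:16259289-16259588. Capitals mark matches on either strand to TTNNGNAA, the letters of a C/EBP motif.
C3: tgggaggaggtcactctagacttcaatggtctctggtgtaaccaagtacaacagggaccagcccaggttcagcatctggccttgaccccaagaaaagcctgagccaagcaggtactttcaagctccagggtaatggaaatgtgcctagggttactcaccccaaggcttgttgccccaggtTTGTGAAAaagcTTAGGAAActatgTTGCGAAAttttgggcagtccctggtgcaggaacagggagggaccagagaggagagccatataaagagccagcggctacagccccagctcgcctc
C3ar1: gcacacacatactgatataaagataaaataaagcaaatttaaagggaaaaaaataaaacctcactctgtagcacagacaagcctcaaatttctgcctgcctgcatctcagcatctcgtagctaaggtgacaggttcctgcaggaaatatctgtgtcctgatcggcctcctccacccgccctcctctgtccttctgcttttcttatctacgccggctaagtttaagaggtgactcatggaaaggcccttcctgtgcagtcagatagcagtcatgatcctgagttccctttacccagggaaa
C5ar1: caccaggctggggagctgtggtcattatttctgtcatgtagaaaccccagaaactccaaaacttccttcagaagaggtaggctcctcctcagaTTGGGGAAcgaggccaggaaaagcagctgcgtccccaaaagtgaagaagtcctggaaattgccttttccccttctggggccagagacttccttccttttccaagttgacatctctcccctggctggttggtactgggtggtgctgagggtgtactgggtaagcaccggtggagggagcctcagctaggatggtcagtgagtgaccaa
C3 held 3 such matches, at −70 to −63, −58 to −51, and −45 to −38 from the start, none of which overlapped another. At least 1 match was in 40.7% of the 32544 promoters of the same length, and 3 or more were in 3.60%. C5ar1 held 1 match, at −157 to −150, and C3ar1 held 0. The other motifs searched on both strands were GGGANTTNCC for NF-κB (1.17% of all promoters), GAAANNGAAA for the ISRE (3.45%), TTCNNNGAA for the GAS element (8.33%), and GAGGAA for ETS factors (28.1%). None of these was found in C3, C3ar1, or C5ar1. The ETS letters occurred in C1qb, C1qc, and Cfp, and the C/EBP letters in C1qc as well. These are matches of letters in a short window, not sites of binding.

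Cfb, the factor B of the alternative pathway (chromosome 17, 34856374 to 34862518, minus strand), was counted with 0, 0, and 4 reads in the PBS libraries and with 100, 120, and 128 reads in the LPS libraries. These are 0, 0, and 0.135 CPM against 4.88, 5.81, and 7.86 CPM. In these counts the gene was near the limit of detection without LPS and low with it. Whether reads on the bases shared with Gm20547 were counted could not be seen. Its level compared with that of other genes is therefore uncertain. From the summed reads, 348 against 4, the ratio of levels was 141, with an exact 95% interval of 54.5 to 520.0 for counting error only. The fitted log2 fold change was 6.99 (SE 0.86), with an adjusted p of 7.5e-05 (edgeR), and its size depends on the prior count because so few reads stood in the PBS libraries. The gene passed the filter on low counts through the libraries given LPS. The test against PBS could therefore only have called it higher.

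C3ar1, the receptor for the fragment C3a (chromosome 6, 122847138 to 122856161, minus strand), had 1412, 1401, and 1735 CPM with PBS and 2738, 2570.0, and 3986 CPM with LPS. All LPS libraries were above all PBS libraries. The log2 fold change was 1.03 (SE 0.21, 95% confidence interval 0.57 to 1.49), with an adjusted p of 0.00195 (edgeR). Within the sets it was 0.96, 0.88, and 1.20. With total counts the value was 0.36 on the log2 scale and was not called, but it was above the median of all genes under both scalings.

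C5ar1, the receptor for the fragment C5a (chromosome 7, 16246743 to 16259540, minus strand), had 769, 694, and 1281 CPM with PBS and 670.2, 609.6, and 509 CPM with LPS. The groups did not overlap, but set 3 held both the highest and the lowest value and the libraries of sets 1 and 2 lay close together. The log2 fold change was −0.62 (SE 0.23, 95% confidence interval −1.12 to −0.11), with an adjusted p of 0.0466 (edgeR). Within the sets it was −0.20, −0.19, and −1.33. Without PBS replicate 3 the value was −0.29 (adjusted p = 0.214, edgeR) and without library set 3 it was −0.18 (adjusted p = 0.0988, edgeR). It was −0.82 without set 1 (adjusted p = 0.1000, edgeR) and −0.80 without set 2 (adjusted p = 0.115, edgeR), larger in size but not called. DESeq2 gave −0.57 (adjusted p = 0.0472), short of 1.5-fold, edgeR with DESeq2's size factors gave an adjusted p of 0.0763, and edgeR on the PBS and LPS libraries alone gave 0.0950. With the sets as a block it was −0.58 with an adjusted p of 0.0242 (edgeR), short of 1.5-fold. The summed level of 8 neutrophil markers ranged from 139 to 221 CPM in set 1, 264 to 447 CPM in set 2, and 302 to 1015 CPM in set 3. By condition it ranged from 139 to 547 CPM with PBS and from 221 to 1015 CPM with LPS. None of these 8 markers was at 0 in all libraries, and their part in the change of C5ar1 was not tested.

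The 3 C1q chains showed small differences with LPS that were not called. C1qb had 1487, 1394, and 2214 CPM with PBS and 1868, 1953, and 2818 CPM with LPS, and C1qa had 540.3, 411, and 722 against 628, 511, and 819 CPM. C1qc had 1163, 1136, and 1826 against 1368, 1354, and 1894 CPM, so for each chain the groups overlapped and set 3 was highest in both. The log2 fold change of C1qb was 0.38 (SE 0.25, 95% confidence interval −0.17 to 0.93), with an adjusted p of 0.240 (edgeR). It was 0.23 for C1qa (interval −0.32 to 0.77) and 0.16 for C1qc (interval −0.38 to 0.70). Within the sets, the LPS library was above the PBS library for all 3 chains in all 3 sets, as for 34.9% of all genes tested. With the sets as a block the adjusted p was 0.0259 for C1qa, 0.00109 for C1qb, and 0.0635 for C1qc (edgeR), with no chain at 1.5-fold. The direction depends on the scaling: with total counts the log2 fold changes were −0.44 for C1qa, −0.29 for C1qb, and −0.50 for C1qc, all of them above the median of all genes (−0.71). With the block and total counts they were −0.43, −0.27, and −0.48 in the same order. The adjusted p was then 0.00152, 0.0112, and 0.000464 (edgeR), with no chain at 1.5-fold.

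Because the 3 chains assemble into 1 protein, their levels were also compared within each library. The genes lie next to each other on chromosome 4 of GRCm38, C1qb from 136880129 to 136886187, C1qc from 136889804 to 136893065, and C1qa from 136895917 to 136898803, all on the minus strand. In CPM per kilobase of exon, the ratio of C1qb to C1qa lay between 2.59 and 3.65 over the 12 libraries (median 3.16), and that of C1qc to C1qa between 1.14 and 1.49 (median 1.33). C1qa was thus the lowest of the 3 chains in every library.

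Properdin (Cfp, chromosome X, 20925454 to 20931555, minus strand), which stabilizes the convertase that factor B forms, had 528, 546, and 709 CPM with PBS and 616, 717, and 942 CPM with LPS. The groups overlapped, and every LPS library was above the PBS library of its own set. Its log2 fold change was 0.35 (SE 0.23, 95% confidence interval −0.15 to 0.85), with an adjusted p of 0.235 (edgeR). It was 0.34 with the sets as a block (adjusted p = 0.00186, edgeR, short of 1.5-fold) and −0.32 with total counts. With the block and total counts it was also −0.32 (adjusted p = 0.00129, edgeR, short of 1.5-fold).

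Serping1, which encodes the C1 inhibitor (chromosome 2, 84765387 to 84775444, minus strand), had 2.44, 0.175, and 0.776 CPM with PBS and 4.64, 0.145, and 1.35 CPM with LPS. The groups overlapped, and library set 1 was highest in every condition. Its log2 fold change was 0.84 (SE 1.28, 95% confidence interval −1.97 to 3.66), with an adjusted p of 0.632 (edgeR). Behind these levels were 85 to 100 reads per library in set 1, 3 to 10 in set 2, and 16 to 23 in set 3.

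**Figure D2:**
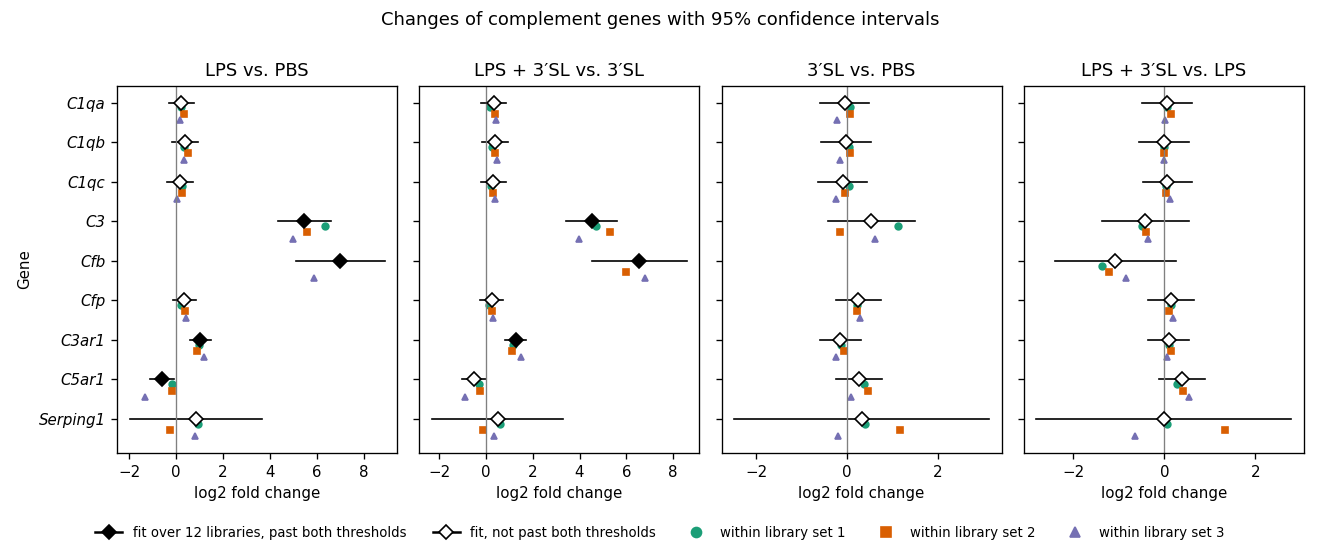
Log2 fold change (horizontal axes, which differ in range) of the 9 genes in 4 comparisons. Diamonds are the fit over 12 libraries with the 95% confidence interval, filled where both thresholds were passed, and the coloured points are the changes within each library set, where both libraries had reads. Cfb is left out for 3′SL vs. PBS, where the conditions had 2 and 4 reads in all. With LPS, C3, Cfb, and C3ar1 lie to the right of 0, and for C5ar1 set 3 lies apart from sets 1 and 2.

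Serping1 moved with the library sets, as did markers of stromal cells. Its mean level was 3.78 ± 1.16 CPM in set 1, 0.272 ± 0.130 CPM in set 2, and 0.915 ± 0.300 CPM in set 3 (SD, n = 4 libraries, 1 of each condition). Set 1 was 13.9-fold above set 2 and 4.13-fold above set 3. The collagen gene Col1a1 had 223, 10.7, and 27.8 CPM in the same order, a 20.8-fold difference between sets 1 and 2. For Col1a2 this difference was 20.8-fold, and for Dcn it was 42.0-fold. Pdgfra had 5.57, 0.547, and 0.514 CPM, so unlike Serping1 it was not higher in set 3 than in set 2. The summed level of the 8 stromal markers was between 537 and 619 CPM in set 1, 23.6 and 34.5 CPM in set 2, and 55.8 and 90.1 CPM in set 3. None of these 8 markers was at 0 in all libraries. By condition the sum ranged from 23.6 to 537 CPM with PBS, 25.4 to 583 CPM with 3′SL, 34.5 to 619 CPM with LPS, and 27.5 to 616 CPM where both were given. The summed level of 4 mast cell and basophil markers was also highest in set 1. It was between 1.90 and 3.06 CPM there, 0.0702 and 0.557 CPM in set 2, and 0.0337 and 0.307 CPM in set 3. Of these markers, 1 was at 0 in all libraries. In bulk samples, fewer cells of a type and less RNA per cell cannot be told apart. The part of stromal or other cells in the level of Serping1 was not tested.

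**Figure D3:**
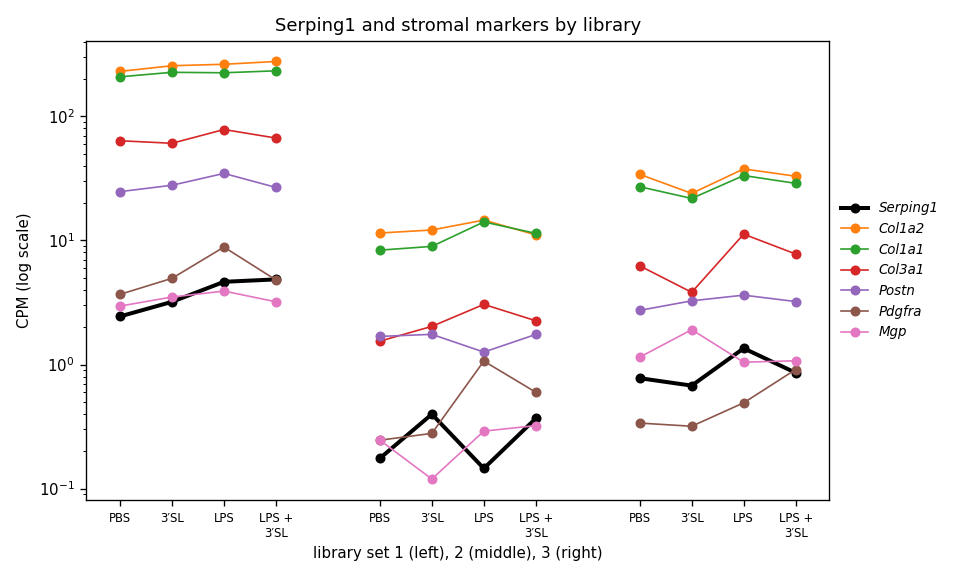
Level in CPM (vertical axis, log scale) of Serping1 and 6 stromal markers in each of the 12 libraries, grouped by library set. Set 1 holds the highest levels of Serping1 and of the markers, with Col1a1 at a mean of 223 CPM against 10.7 CPM in set 2.

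Most of the other genes were highest in set 3. C1qa, C1qb, C1qc, C3, Cfp, and C3ar1 had their highest library in set 3 in every condition, and for all of these but C3 the highest library exceeded the lowest by 1.13-fold to 1.75-fold. The macrophage marker Csf1r averaged 2001 ± 248 CPM in set 1, 2324 ± 225 in set 2, and 3145 ± 495 in set 3 (SD, n = 4). Cd68, another macrophage marker, averaged 1556 ± 71.2, 1579.8 ± 95.2, and 1433 ± 98.0 CPM and was not highest in set 3. The part of these differences in the levels of the complement genes was not tested.

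The next comparison asked what 3′SL did to these genes in cells not given LPS. With edgeR, 0 of the 9 genes were called for 3′SL against PBS, beside 0% of all genes tested, and 0 of the 9 had an unadjusted p under 0.05, as 1439 of all genes did. DESeq2 called 0 of the 9 and 88 genes in all, and the fit with the sets as a block called 0 of the 9 and 2.84% of all genes. In that block fit (edgeR) 1 of the 9 (Cfp) had an unadjusted p under 0.05, as 3440 of all genes did. This comparison shares the PBS libraries with that of LPS against PBS. C3 had 34.7, 27.6, and 79.8 CPM with 3′SL, higher than PBS in sets 1 and 3 and lower in set 2, a log2 fold change of 0.54 (95% confidence interval −0.42 to 1.49, adjusted p = 0.736, edgeR). C5ar1 had 998, 962, and 1363 CPM, above the PBS library in each set, and its log2 fold change was 0.28 (interval −0.23 to 0.78, adjusted p = 0.743, edgeR). Cfp was also above PBS in each set, with 616, 638, and 874 CPM and a log2 fold change of 0.26 (interval −0.25 to 0.76). Among all genes tested, 25.8% were higher in all 3 sets. C3ar1 was below PBS in each set (1298, 1336, and 1469 CPM), with a log2 fold change of −0.15 (interval −0.60 to 0.30), and 25.5% of genes were lower in all 3 sets. The log2 fold changes of the C1q chains were −0.048 for C1qa, −0.027 for C1qb, and −0.092 for C1qc. Serping1 had 3.20, 0.398, and 0.676 CPM and Cfb 0, 1, and 1 reads, too few for a fold change of Cfb. For all 9 genes the libraries of both conditions overlapped.

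A further comparison asked whether 3′SL modified the levels reached with LPS. With edgeR, 0 of the 9 genes were called for LPS + 3′SL against LPS, beside 0% of all genes tested, and 0 of the 9 had an unadjusted p under 0.05, as 995 of all genes did. This comparison shares the LPS libraries with that of LPS against PBS. DESeq2 called 0 of the 9, with 1 (Cfb) at an unadjusted p under 0.05, and 113 genes in all, and the fit with the sets as a block called 0 of the 9 and 1.45% of all genes. In that block fit (edgeR) 1 of the 9 (Cfb) had an unadjusted p under 0.05, as 2190 of all genes did. For 3 of the 9 genes the libraries did not overlap between the conditions. C3 and Cfb were lower with 3′SL (as were 6.5% of all genes), and C5ar1 was higher (as were 6.24%).

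C3 had 911, 1079, and 1251 CPM with LPS + 3′SL, against 1278, 1439, and 1611 CPM with LPS alone. C3 was lower in all 3 sets, with log2 fold changes of −0.49, −0.42, and −0.36, as were 25.7% of all genes. The fitted value was −0.42 (SE 0.43, 95% confidence interval −1.36 to 0.53), with an adjusted p of 1 (edgeR), and with the sets as a block −0.43 with an adjusted p of 0.469. The test uses 1 estimate of spread for all 4 conditions, and C3 varied more between the libraries without LPS than between those with it.

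Cfb had 39, 54, and 82 reads with LPS + 3′SL, against 100, 120, and 128 reads with LPS alone, or 1.89, 2.48, and 4.40 CPM against 4.88, 5.81, and 7.86 CPM. Every library with 3′SL was below every library without it. The ratio of levels from the summed reads was 0.473, with an exact 95% interval of 0.392 to 0.569 for counting error only. Within the sets the log2 fold change was −1.37, −1.23, and −0.84. The fitted value was −1.08 (SE 0.60, 95% confidence interval −2.41 to 0.25), with an adjusted p of 0.835 (edgeR), and with the sets as a block −1.14 with an adjusted p of 0.0973. With the block and without library set 3 it passed both thresholds, at −1.28 with an adjusted p of 0.0356 (edgeR).

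C5ar1 had 808, 803, and 743 CPM with LPS + 3′SL, against 670.2, 609.6, and 509 CPM with LPS alone. All 3 libraries with 3′SL were above all 3 without it. The log2 fold change was 0.40 (SE 0.23, 95% confidence interval −0.11 to 0.90), with an adjusted p of 0.856 (edgeR), and within the sets it was 0.27, 0.40, and 0.55. C5ar1 was above the matching library without 3′SL in all 3 sets both with and without LPS, as were 7.77% of all genes tested. Cfp was too, with 676, 763, and 1072 CPM and a log2 fold change of 0.14 (interval −0.36 to 0.64) beside LPS.

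For the remaining genes the fitted differences beside LPS were under 0.10 on the log2 scale. C3ar1 had 2924, 2860.5, and 4113 CPM, a log2 fold change of 0.091 (95% confidence interval −0.36 to 0.54). C1qa had 649.9, 560.1, and 827 CPM, a log2 fold change of 0.057 (interval −0.49 to 0.60). The values were −0.011 for C1qb (interval −0.56 to 0.54) and 0.064 for C1qc (interval −0.48 to 0.60). Serping1 had 4.85, 0.368, and 0.858 CPM, and its log2 fold change of −0.016 had an interval of −2.81 to 2.78.

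In cells given 3′SL, LPS raised the same 3 genes as in cells given PBS: C3, Cfb, and C3ar1. With edgeR, 3 of the 9 were called, all higher, beside 29.2% of all genes tested (14.3% higher). C3 rose by 4.51 on the log2 scale (SE 0.50, adjusted p = 5.7e-05, edgeR), and C3ar1 rose by 1.27 (SE 0.21, adjusted p = 0.000761, edgeR). Cfb, with 175 against 2 reads, had a ratio of levels of 111 with an exact 95% interval of 30.2 to 921, and an adjusted p of 0.000273 (edgeR). Here too only a call as higher was open to Cfb. C5ar1 was not called, with a log2 fold change of −0.50 (SE 0.23, adjusted p = 0.117, edgeR), although its groups did not overlap, as for 24.2% of all genes in that direction. With total counts C5ar1 was at −0.95 (adjusted p = 0.00702, edgeR), where the median of all genes was −0.54. With the block and total counts it was also −0.95 (adjusted p = 0.00282, edgeR). Both of these fits passed the thresholds. The C1q chains had log2 fold changes of 0.33 for C1qa, 0.40 for C1qb, and 0.32 for C1qc and were not called.

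The interaction tests whether the responses to LPS with and without 3′SL differ. With edgeR it was called for 0 of the 9 genes and 0% of all genes tested, and at an unadjusted p under 0.05 it found 0 of the 9 and 872 of all genes. DESeq2 called 0 of the 9 and 44 genes in all, and 0 of the 9 were called by the fit with the sets as a block, which called 1.55% of all genes. In that block fit (edgeR) 1 of the 9 (C3) had an unadjusted p under 0.05, as 2473 of all genes did. Without the block, the interaction was −0.96 on the log2 scale for C3 (95% confidence interval −2.30 to 0.39) and 0.12 for C5ar1 (interval −0.59 to 0.83). For C3ar1 it was 0.24 (interval −0.40 to 0.88), and its difference with 3′SL had opposite directions with and without LPS in all 3 sets, as for 10.9% of all genes.

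The genes whose pattern was most like that of a complement gene were found by the root-mean-square difference of log2 CPM over the 12 libraries, each gene centred on its own mean, with the 9 left out of the ranking. Cfp lay close to Fes, a tyrosine kinase gene of myeloid cells (0.024 on the log2 scale), and Diaph1 (0.068) was also among its nearest genes. Fes had 132 ± 23.9 CPM with PBS, 152 ± 31.2 with 3′SL, 167 ± 40.2 with LPS, and 183 ± 45.4 where both were given (SD, n = 3), and Cfp had 594 ± 100.1, 709 ± 143, 758 ± 167, and 837 ± 208 CPM. C3 was most like Gm12250 (0.21), Ifih1 (0.23), and Igtp (0.26). Ifih1, a sensor of viral RNA, had 50.1 ± 23.0 CPM with PBS and 2058 ± 509 CPM with LPS. Cfb was most like Ccl4 (0.48), Klrk1 (0.50), and Hdc (0.51), and its values near 0 reads make its pattern coarse. C3ar1 was most like Taok3 (0.10), Sdc3 (0.11), and Actr3 (0.11). C5ar1 was most like Rpn1 (0.15), Arrb2 (0.16), and Cd151 (0.16). Of genes outside the 9, C1qa was most like Ecm1 (0.12), Zbtb18 (0.12), and Cd5l (0.13), and C1qc (0.126) was nearer to it than Cd5l (0.127). Serping1 was most like Slit2 (0.43), Pcdh19 (0.43), and Col4a1 (0.45). These distances carry no test, and all genes share the libraries and their scaling.

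The other genes of the complement system were examined as 46 genes in 5 groups by role. Of these, 21 were tested, 6 had no read in any library, and the other 19 had at most 19 reads in a library. The 6 with no read were Mbl1, Mbl2, C7, C8a, C4bp, and Vtn, named here after their values were seen. LPS against PBS changed 7 of the 21 past both thresholds, 4 higher and 3 lower, beside 38.5% of all genes tested. Their median log2 fold change was 0.085. DESeq2 called 7 of the 21 and the fit with the sets as a block called 8.

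Among the 8 tested genes of the classical and lectin pathways, 2 were called, both higher. C1ra, a protease of the C1 complex, had 3.10, 2.84, and 2.53 CPM with PBS and 8.30, 9.98, and 18.8 CPM with LPS, a log2 fold change of 2.12 (SE 0.33, adjusted p = 0.000397, edgeR). Its copy C1rb makes the split of reads uncertain, as 50.8% of the 50-base words of C1ra also occur in other genes. C2, which pairs with C4 in the classical convertase, had 0.345, 0.316, and 0.573 CPM with PBS and 1.22, 0.920, and 2.70 CPM with LPS, a log2 fold change of 1.95 (SE 0.65, adjusted p = 0.0298, edgeR). It shares 42.8% of its exon bases with Gm20547. Fcna, a ficolin that recognizes sugars, had 33.5 ± 5.91 CPM with PBS and 39.7 ± 8.44 CPM with LPS and was not called.

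Of factor D and the terminal components, C8g was the 1 gene of 8 that was tested, with 1.30 ± 0.181 CPM with PBS and 0.975 ± 0.336 CPM with LPS. Factor D itself (Cfd), the protease that activates factor B, had 1 read in all 12 libraries together and is named after its values were seen. Of the 8 soluble regulators 2 were tested, and 0 of them were called. Among these, Cfhr2 had at most 12 reads in a library.

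Of the 3 tested membrane regulators, Cd55, which speeds the decay of convertases, rose with LPS. It had 1.23, 2.28, and 3.20 CPM with PBS and 11.9, 14.3, and 10.7 CPM with LPS, a log2 fold change of 2.46 (SE 0.34, adjusted p = 0.000156, edgeR). Cr1l, the rodent regulator Crry, had 67.1 ± 5.27 CPM with PBS and 94.1 ± 10.4 CPM with LPS, a log2 fold change of 0.49 (SE 0.11, adjusted p = 0.00311, edgeR), short of 1.5-fold. Cd59a, which blocks the membrane attack complex, had 7.91 ± 1.51 CPM and 6.92 ± 0.962 CPM and was not called.

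Among the 7 other receptors tested, 1 was called higher and 3 lower. Itgam, a chain of complement receptor 3, had 691, 826, and 885 CPM with PBS and 1033, 1143, and 1435 CPM with LPS, a log2 fold change of 0.59 (SE 0.17, adjusted p = 0.0149, edgeR), and 68.7% of its exon bases are also annotated to Gm49368. The change of Itgam, 1.503-fold, was barely past the threshold of 1.5-fold. With the sets as a block it was 0.582 on the log2 scale (adjusted p = 7.4e-05, edgeR), short of 1.5-fold and not called. C5ar2, the second receptor for C5a, had 13.1, 14.3, and 23.2 CPM with PBS and 5.76, 4.41, and 6.14 CPM with LPS, a log2 fold change of −1.63 (SE 0.36, adjusted p = 0.00362, edgeR). Within the sets its log2 fold change was −1.18, −1.70, and −1.92, against −0.20, −0.19, and −1.33 for C5ar1. Cd93, once described as a receptor for C1q, had 794, 876, and 605 CPM with PBS and 385, 368, and 242 CPM with LPS, a log2 fold change of −1.19 (SE 0.26, adjusted p = 0.00314, edgeR). C1qbp, a mitochondrial protein that binds C1q, had 55.8, 59.0, and 71.8 CPM with PBS and 31.5, 29.4, and 21.6 CPM with LPS, a log2 fold change of −1.17 (SE 0.16, adjusted p = 0.000121, edgeR).

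**Figure D4:**
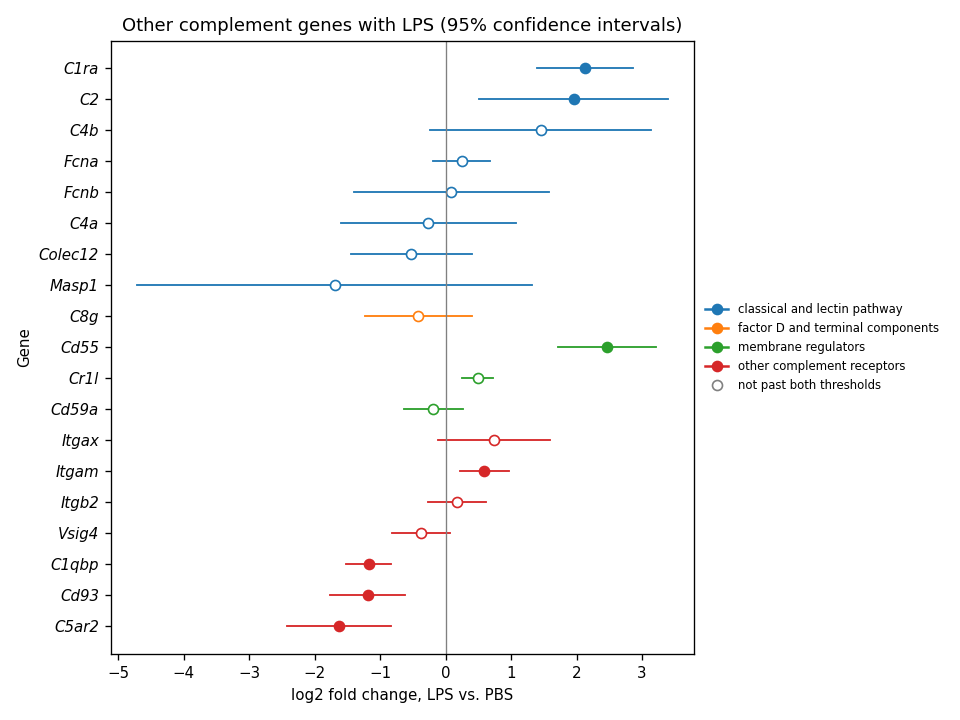
Log2 fold change for LPS vs. PBS (horizontal axis) of the 19 tested complement genes outside the 9 in 4 of the 5 groups (soluble regulators are not drawn), with 95% confidence intervals, coloured by role. Filled points passed both thresholds: C1ra, C2, Cd55, and Itgam lie to the right of 0, and C1qbp, Cd93, and C5ar2 to the left.

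With 3′SL present, LPS changed 6 of the 21 past both thresholds, beside 29.2% of all genes, namely C1ra, C2, and Cd55 higher and C5ar2, Cd93, and C1qbp lower. For 3′SL against PBS and for LPS + 3′SL against LPS, 0 of the 21 were called by edgeR, by DESeq2, and with the sets as a block. At an unadjusted p under 0.05 in edgeR there was 1 of the 21 for 3′SL against PBS, beside 1439 of all genes. For LPS + 3′SL against LPS there were 0, beside 995 of all genes. With the sets as a block there were 5 of the 21 in each comparison, beside 3440 and 2190 of all genes in the same order. The 1 gene found without the block was C1qbp, with 47.5 ± 1.54 CPM against 62.2 ± 8.48 CPM, a log2 fold change of −0.39 (SE 0.15, adjusted p = 0.453, edgeR). C5ar2 was above its matching library without 3′SL in all 3 sets both with and without LPS, as were 7.77% of all genes tested. Its log2 fold change was 0.35 without LPS (95% confidence interval −0.42 to 1.12) and 0.66 with LPS (interval −0.13 to 1.45), and it was not called in either. Within the sets the value with LPS was 0.027, 0.60, and 1.11, so set 1 held almost no difference.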

How the data were processed

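RNA-Seq libraries of BMDMs were analysed, 3 for each of 4 conditions taken from the labels. For every library the authors deposited a table of gene counts, whole numbers with no normalization. Reads without a gene (6.10% to 8.22% of these and the gene counts together) and ambiguous reads (2.56% to 3.14%) were left out. Alignments that were not unique, 8634639 to 11273250 per library, were not counted on genes either. This bears on genes with close copies, such as C1ra. The submitters' processing notes name FastQC, Trimmomatic, STAR, HTSeq, and DESeq2. Versions, the genome build, and the strand setting are not given in the sources used here. Identifiers were matched to GENCODE M21 (GRCm38), which named 42548 of 43626 genes.

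Genes were tested with edgeR 4.0.16 (R 4.3.3), using filterByExpr, TMM factors (0.700 to 1.30), and a quasi-likelihood fit over all 12 libraries with 1 mean per condition. The fit was tested on simulated data with less spread than these libraries and no library sets. How it performs at the spread seen here was not tested. Ratios within sets compare 2 libraries and carry no error, and intervals of read ratios cover counting error only.

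Alternatives were DESeq2 1.42.0, its size factors, total counts, no filter, at least 10 counts in every library, only the conditions compared, leaving out each library or set, and the library sets as a block, alone or with total counts. The block without each set was chosen after seeing the data. Libraries of the same set deviated together (lowest residual correlation 0.417, highest between sets −0.000339). Removing the condition means by itself lowers the correlation between sets. The sets come from the library numbers in the labels. Replicate numbers follow the order of the sets. The 9 genes, the lists, and the motifs were chosen with earlier results of these data known. Besides the 9, the genes named are those called in each list of other complement genes, or otherwise the highest up to 3, the 3 nearest genes of 7 of the 9, and markers. Genes of this rule that are not named are not reported here.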

Additional observations from a re-analysis of the deposited data

Results flagged for a closer look

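For C3ar1 the difference made by 3′SL turned direction with LPS in all 3 library sets. Without LPS, the log2 fold change with 3′SL was −0.12, −0.068, and −0.24 in sets 1, 2, and 3, and with LPS it was 0.095, 0.15, and 0.045. Such a reversal in all 3 sets was found for 10.9% of all genes tested. The interaction was 0.24 on the log2 scale (95% confidence interval −0.40 to 0.88), and did not pass edgeR's test (adjusted p = 0.944).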

How the results depend on the processing

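With 3 libraries per condition, low counts (Cfb without LPS, Serping1 in library set 2) and the spread between library sets limit what could be seen. C3, Cfb, and C3ar1 kept their direction with LPS under every alternative, and without each library in turn they ranged over C3 5.14 to 5.96, Cfb 6.39 to 10.18, and C3ar1 0.81 to 1.15 on the log2 scale. For the values below the cause was not tested.

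Directions changed as follows, all on the log2 scale. For LPS against PBS, total counts and the replicate block with total counts gave C1qa −0.44 and −0.43, C1qb −0.29 and −0.27, C1qc −0.50 and −0.48, and Cfp −0.32 and −0.32. For LPS + 3′SL against 3′SL they gave C1qa −0.16 and −0.15, C1qb −0.10 and −0.10, C1qc −0.18 and −0.18, Cfp −0.25 and −0.25, and the second gave Serping1 −0.089. For 3′SL against PBS, leaving out set 3 without and with the block gave C1qa 0.052 and 0.051 and C1qb 0.042 and 0.042. For LPS + 3′SL against LPS, C1qb was 0.074 with total counts, 0.0029 with no filter, 0.0036 when fitting LPS and LPS + 3′SL alone, and 0.076 with the block and total counts. Serping1 there was 0.10 with total counts, 0.090 with the block and total counts, and 0.14 and 0.25 without set 3, without and with the block. The interaction of C1qb was −0.0033 with the block, and −0.047 and −0.047 without set 3. That of Cfp was 0.064 and 0.062 with total counts, and that of C5ar1 −0.064 and −0.063 without set 3.

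Without each library in turn, these values also changed direction and ranged as follows. For LPS against PBS they were C1qc −0.014 to 0.42, Serping1 −0.64 to 2.09, and C5ar1, called in the report, ranged from −0.78 to −0.29 and lost its call in 9 of 12 fits. For 3′SL against PBS they were C1qa −0.23 to 0.18, C1qb −0.21 to 0.21, C1qc −0.28 to 0.17, C3 −0.11 to 1.03, Serping1 −1.08 to 1.57. For LPS + 3′SL against LPS they were C1qa −0.11 to 0.26, C1qb −0.22 to 0.20, C1qc −0.15 to 0.24, Cfp −0.074 to 0.33, C3ar1 −0.10 to 0.32, Serping1 −1.74 to 1.47. For LPS + 3′SL against 3′SL they were Serping1 −1.22 to 1.91. For the interaction they were C1qa −0.12 to 0.30, C1qb −0.22 to 0.23, C1qc −0.10 to 0.35, Cfp −0.33 to 0.10, C5ar1 −0.20 to 0.34, Serping1 −2.07 to 1.14.

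Of the 9 genes, 1 was called for LPS + 3′SL against LPS with the replicate block and without set 3, and with LPS the count without each library was 3 to 4. C5ar1 was called lower for LPS + 3′SL against 3′SL with total counts, and with the block and total counts. Of the other complement genes, the count for LPS against PBS was 12 with the block and total counts and 3 without set 2. For LPS + 3′SL against 3′SL it was 11 with the block and total counts, 3 without set 1, 2 without set 2, and 10 with the block and without set 3.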
